A study of Homo sapiens with 16 samples.

Results

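The baseline transcriptome of human embryonic stem cells under control siRNA was read from 4 of the 16 libraries of the series, 2 that received an siRNA labelled Control and 2 that received an siRNA against Renilla luciferase, labelled Luciferase. They were picked by the siRNA named in their labels, with earlier results of these data known, the difference between replicate numbers among them. The cells were H9, an established human embryonic stem cell line, in a version with a REX1-EGFP reporter (REX1, gene symbol ZFP42, is a zinc finger protein used as a sign of the undifferentiated state). In the other 12 libraries the same cells received siRNAs against SALL4, VRTN, DSCC1 or SEPHS1. All 4 control libraries shared the line, feeder-free culture on Matrigel in mTeSR1 medium, 30 to 50 nM siRNA given with the lipid DharmaFECT 1, and a poly(A)-selected library read as 80 bp single ends. The luciferase siRNA was a pool made by enzymatic digestion, whereas the labels give neither the maker nor the type of the Control siRNA. The knockdown cells were collected at 48 h or 72 h, and no collection time is given for the controls, so their time under siRNA cannot be matched to either. A growth time of 3 to 4 days is given for all 16 libraries. No untransfected cells were analysed here, so the baseline is that of transfected cells. The submitters call each pair biological replicates, with no statement of what the replicate number stands for.

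Embryonic stem cells are held in the pluripotent state by a small network of transcription factors centred on POU5F1 (OCT4), SOX2 and NANOG, which keep one another and many other stem cell genes active while genes of the germ layers stay silent. Human lines resemble the primed epiblast: they depend on FGF and activin signalling, carry DNMT3B and ZIC2 as typical transcripts, and lack most genes of the naive, preimplantation state. Many human gene families hold several paralogues with related proteins, and each cell type usually draws on a characteristic member.

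The 4 libraries held 28662389 and 27164564 counts for Control 1 and 2, and 18597262 and 23736177 counts for Luciferase 1 and 2. Levels are given as CPM, counts scaled to library size with TMM factors, and as CPM per kb of exon for shares within a family and wherever the level of 1 gene is set against that of another. CPM of different genes also scale with their length, so an order by CPM is an order of read numbers. The floor of 3 counts lay at 0.102 to 0.142 CPM, and 1 CPM stood for 21.2 to 29.4 counts, figures that cover counting error only. Genes of the mitochondrial genome took 33.4 and 30.6% of the counts in the Control libraries and 27.9 and 33.1% in the Luciferase libraries. The 10 most abundant identifiers took 27.5 to 32.9% of each library and the 100 most abundant 48.1 to 53.6%.

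The libraries carried the marker genes of pluripotent cells, all 5 of them above 100 CPM in each library. POU5F1 (chr6:31164337-31180731, minus strand, GRCh38), the POU factor without which pluripotency is lost, read 188 and 189 CPM in the Control libraries and 207 CPM in each Luciferase library. SOX2 (chr3:181711924-181714436), its binding partner, read 178 and 207 CPM under Control and 204 and 205 CPM under Luciferase. Both averaged 198 CPM, with an SD of 10.7 CPM for POU5F1 and 13.7 CPM for SOX2 (n = 4). NANOG, the homeodomain factor that completes the core, read 91.4 and 81.3 CPM under Control and 98.2 and 73.1 CPM under Luciferase, so each siRNA gave 1 library above and 1 below 86 CPM. These 3 core factors were on in every library.

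The 2 most abundant of the 5 markers were not transcription factors. DNMT3B (chr20:32762385-32809356), the methyltransferase that places new DNA methylation in early embryos, read 1039 and 1340 CPM under Control and 964 and 1207 CPM under Luciferase. LIN28A (chr1:26410778-26429722), an RNA-binding protein that blocks maturation of let-7 microRNAs, read 952 and 1036 CPM under Control and 837 and 1054 CPM under Luciferase. Per kb of exon the pair were close, at 246 ± 36.5 and 242 ± 24.7 CPM per kb (SD, n = 4), a difference smaller than either SD, and both stood above POU5F1 at 68.4 ± 3.68 and SOX2 at 78.9 ± 5.43 CPM per kb in all 4 libraries. TERF1 (chr8:73008864-73048122), a protein that coats telomeric repeats, was the least even of the markers. It read 123 and 205 CPM under Control and 102 and 164 CPM under Luciferase. DNMT3B, LIN28A and TERF1 all read higher in the library numbered 2 under either siRNA. Values did not overlap between the numbers for 36.1% of all genes tested, and TERF1 did not pass the edgeR test between them.

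**Figure D1:**
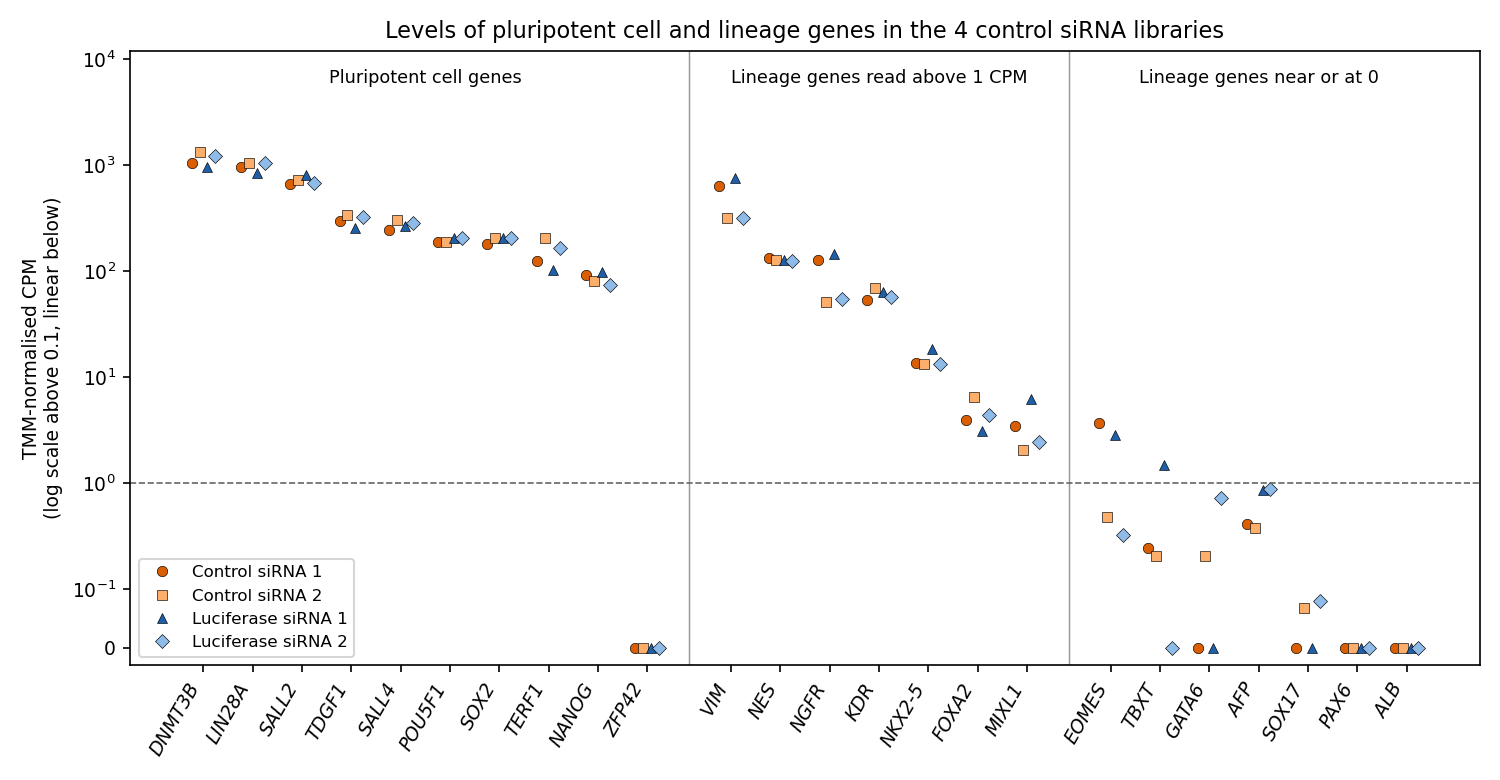
TMM-normalised CPM of 24 genes in each of the 4 control libraries, on an axis that is logarithmic above 0.1 CPM and linear below; the dashed line marks 1 CPM. The pluripotent cell genes other than ZFP42 read 73.1 CPM or more in every library, and ZFP42 read 0. Values of EOMES, VIM and NGFR did not overlap between the library numbers, as held for 36.1% of all genes tested. With so few libraries, such a share is also expected without any difference. DNMT3B, LIN28A and TERF1 did not overlap either. Of the genes named here as not overlapping, only VIM passed the edgeR test between the numbers.

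A gene was called on where it read at least 1 CPM in all 4 libraries, off where it had 3 counts or fewer in each, and low otherwise. Of 19693 protein-coding identifiers, 10765 (54.7%) were on, 4172 were low and 4756 (24.2%) were off. In each of the 4 libraries 965 protein-coding genes passed 100 CPM and 47 passed 1000 CPM. Against that background of 54.7%, 40 of 44 genes of primed and general pluripotency were on, and their summed level lay between 12988 and 14517 CPM.

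Among the transcripts of the primed list, the highest per kb was ESRG, a noncoding RNA of human pluripotent cells derived from an endogenous retrovirus. It read 1727 and 1659 CPM under Control and 1543 and 1719 CPM under Luciferase, 529 ± 27.1 CPM per kb (SD, n = 4). SFRP2, a secreted Wnt antagonist, followed at 391 ± 54.2 CPM per kb, and CD24, a surface glycoprotein, at 359 ± 28.2 CPM per kb. PODXL, the sialomucin that carries the TRA-1-60 and TRA-1-81 epitopes, averaged 1619 ± 148 CPM, and PHC1, a Polycomb subunit, 1000 ± 60.7 CPM. The transcription regulators ZSCAN10 (402 ± 26.6 CPM), DPPA4 (301 ± 18.6 CPM), ZIC2 (222 ± 36.2 CPM) and PRDM14 (120 ± 8.75 CPM) were all on. TDGF1, the NODAL co-receptor also called Cripto, averaged 305 ± 35.5 CPM.

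The NODAL ligands and inhibitors themselves were scarce. NODAL averaged 7.3 ± 1.69 CPM and GDF3, a related ligand, 7.22 ± 3.14 CPM. LEFTY1 read 2.23 and 2.96 CPM under Control and 1.84 and 2.44 CPM under Luciferase, and LEFTY2 1.96 and 1.7 CPM under Control and 0.566 and 3.68 CPM under Luciferase. LEFTY1 and LEFTY2 are near-identical neighbours, and the sources used here do not state how reads shared between copies were counted, so the split between them is uncertain.

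ZFP42 was the single primed gene called off, and it was listed at 0 in all 16 libraries of the series. Its exons overlap no other annotated gene in GENCODE 29. All counted features are Ensembl identifiers, with none for EGFP, so the reporter could not be read here, and the cause of the 0 was not tested. The other primed genes that did not reach the on threshold were DPPA2, at 0.512 ± 0.413 CPM, LEFTY2 and the noncoding LNCPRESS1, at 0.502 ± 0.268 CPM. Zeros were also frequent among genes whose exons overlap those of other genes almost in full. Of 292 protein-coding genes whose exons lie at least 99% within exons of other genes, 93.5% had no count in any of the 16 libraries and 1.03% were on. Among 11026 genes without overlap these shares were 21.3% and 49.9%. Among 7691 genes with an overlap under 50% they were 8.05% and 66.1%. The translation elongation factor subunit EEF1G had 99.9% of its exons overlapped and read 0. The part of counting in these zeros was not tested.

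The naive and 8-cell list was divided, with 8 of 19 genes on, 3 low and 8 off. The 8 off genes included KLF17, ESRRB, DNMT3L, DUXA, ZSCAN4 and LEUTX, factors of the naive state or of embryonic genome activation, and all 6 had 0 counts in the 4 libraries. The on genes were read at low levels. The highest per kb was the placental-type alkaline phosphatase ALPG, at 16.8 and 30.9 CPM under Control and 14.8 and 23.9 CPM under Luciferase, and its near-identical neighbour ALPP averaged 2.16 ± 0.958 CPM, a split that is uncertain for the same reason as that of the LEFTY pair. SUSD2, a surface protein used to sort naive cells, averaged 15 ± 2.22 CPM, and KLF4, a Krüppel-like factor used in reprogramming, 5.56 ± 1.84 CPM. FGF4 averaged 3.35 ± 1.5 CPM.

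Genes of the germ layers were mostly below the on threshold. In bulk RNA, fewer cells that express a gene and less RNA per cell cannot be told apart. In the primitive streak list 1 of 13 genes was on and 12 were low. MIXL1, a homeobox gene of the streak, was the one that was on, at 3.47 and 2.04 CPM under Control and 6.14 and 2.44 CPM under Luciferase. TBXT (Brachyury) was low, with 0.24 and 0.204 CPM under Control and 1.46 and 0 CPM under Luciferase. EOMES, the T-box factor of the streak and endoderm, read 3.71 and 0.476 CPM under Control and 2.83 and 0.32 CPM under Luciferase. Under both siRNAs the library numbered 1 held its higher value, with no call between the numbers (edgeR adjusted p = 1).

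In the endoderm and liver list 1 of 13 genes was on, 8 were low and 4 were off. FOXA2, a pioneer factor of endoderm and floor plate, read 3.95 and 6.5 CPM under Control and 3.11 and 4.4 CPM under Luciferase. SOX17 had at most 0.0799 CPM, and FOXA1, ALB and TTR had 0 counts in all 4 libraries. In the lateral mesoderm and heart list 4 of 11 genes were on. These were KDR, the VEGF receptor, at 60.9 ± 6.65 CPM, the cardiac homeobox gene NKX2-5 at 14.6 ± 2.54 CPM, BMP4 at 7.02 ± 1.08 CPM and TNNT2 at 2.63 ± 0.171 CPM. HAND1, HAND2, MYH6 and FOXF1 were off. None of the 8 genes of paraxial mesoderm and muscle was on, and their summed level stayed between 0 and 1.65 CPM.

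In the neuroectoderm and neuron list 6 of 24 genes were on. The intermediate filament gene NES read 132 and 127 CPM under Control and 128 and 123 CPM under Luciferase. The transcription factor genes POU3F1, at 46 ± 18.1 CPM, SOX3, at 17 ± 3.31 CPM, and FEZF1, at 6.44 ± 1.93 CPM, were also on, as were OTX1 at 2.39 ± 1.06 CPM and DCX at 1.97 ± 0.588 CPM. PAX6, the homeobox gene that marks human neuroectoderm, had 0 counts in all 4 libraries, and SOX1 averaged 0.634 ± 0.204 CPM. Of 9 neural crest genes 3 were on. NGFR, the low-affinity nerve growth factor receptor, read 128 and 51.3 CPM under Control and 145 and 54.3 CPM under Luciferase, while TFAP2A, TFAP2B and TWIST1 had 0 counts.

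In the trophoblast and amnion list the keratin gene KRT7, at 4.19 ± 0.735 CPM, was the 1 of 12 genes that was on, and CGA, ELF5 and VTCN1 had 0 counts. In the blood list HBA1, at 3.62 ± 1.33 CPM, was the 1 of 10 genes that was on. HBA1 and HBA2 encode the same protein from near-identical copies, so its level is uncertain. Of 7 endothelial genes 1, the angiopoietin receptor gene TEK, was on, at 10.5 ± 3.55 CPM. The 39 HOX genes, which pattern the body axis after gastrulation, gave 0 on, 10 low and 29 off, with a summed level between 1.44 and 16.6 CPM. HOXB1, a gene of the 3′ end of its cluster that is active early, read 6.36 and 0.986 CPM under Control and 4.72 and 0.56 CPM under Luciferase.

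Of the fibroblast and mesenchyme genes 6 of 12 were on, at very unequal levels. COL1A1, the alpha 1 chain of collagen I, read 1568 and 1534 CPM under Control and 1759 and 1750 CPM under Luciferase, rank 45 of all identifiers by mean CPM. COL1A2, the alpha 2 chain of the same collagen, averaged 42.1 ± 8.13 CPM, which per kb was 3.78 ± 0.728 CPM against 168 ± 12.1 CPM per kb for COL1A1. TAGLN averaged 750 ± 132 CPM and VIM 508 ± 225 CPM, PDGFRB 18.6 ± 7.93 CPM and ACTA2 5.93 ± 4.04 CPM. The fibroblast genes DCN and FAP had 0 counts, and COL3A1 averaged 0.137 ± 0.194, LUM 0.146 ± 0.292 and POSTN 0.12 ± 0.24 CPM. Summed over the 12 genes the level lay between 2501 and 3481 CPM in the 4 libraries.

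**Figure D2:**
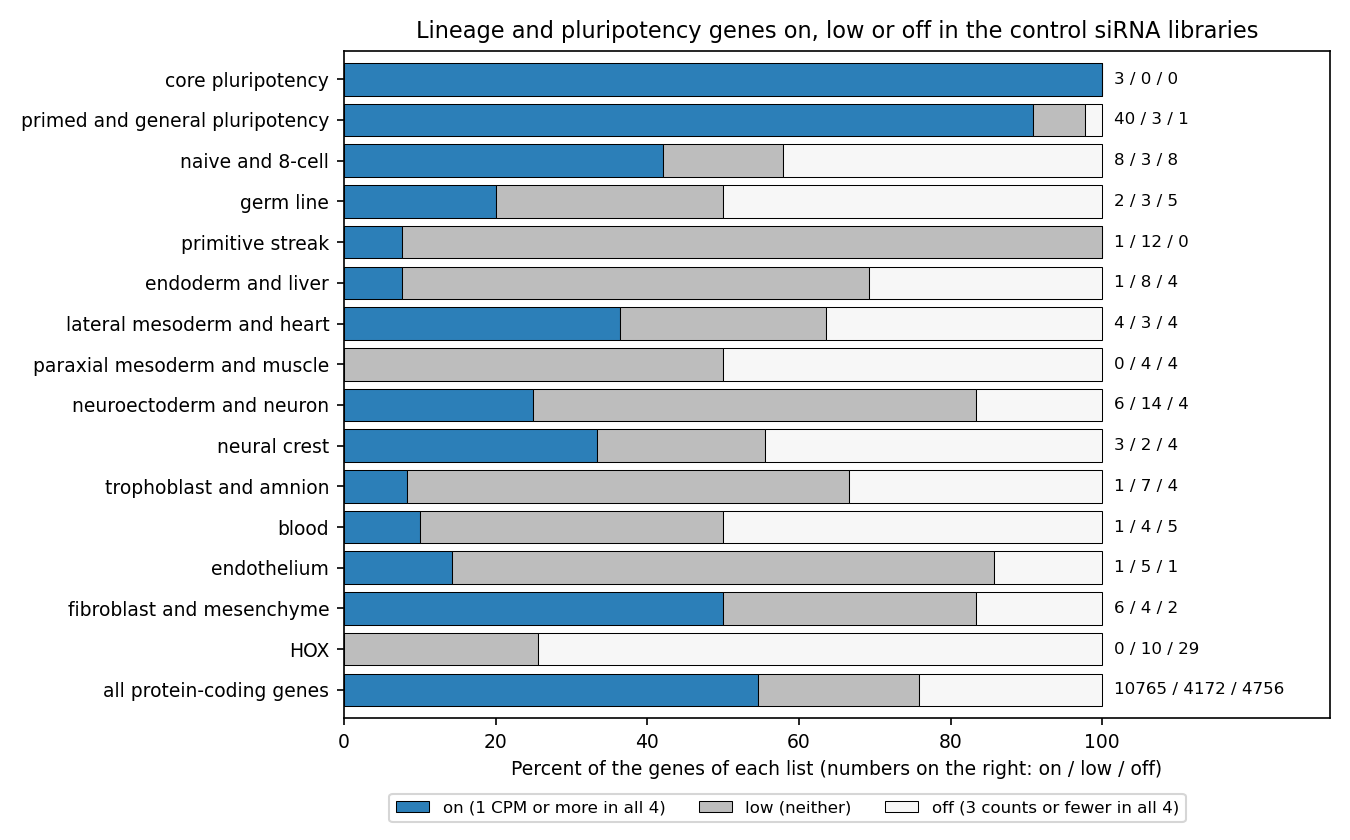
Percent of the genes of each list that were on (1 CPM or more in all 4 libraries), low or off (3 counts or fewer in all 4), with the numbers of genes at the right. The primed list had 40 of 44 genes on, the HOX list 0 of 39, and all protein-coding genes 10765 of 19693.

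The state of a gene went along with the base composition of its promoter. RefSeq gave a promoter in GRCh38.p14 for 12036 protein-coding genes whose RefSeq start lay within 500 bases of the start in GENCODE 29, SOX2 being the one of the 5 markers among them. In the 250 bases before the start, on genes had a median of 22 CpG dinucleotides, low genes 15 and off genes 3. A ratio of observed to expected CpG over 0.6 was found in 85.5% of 6897 on, 59.2% of 2419 low and 21.6% of 2720 off promoters, against 65.8% of all 12036. The letters TATAAA, searched on the coding strand in the last 50 bases, stood in 1.48% of on, 4.88% of low and 10.3% of off promoters, against 4.15% of all. These are descriptions of the windows and not of factor binding. CpG number did not sort single genes: 13 matched HOX promoters, none of an on gene, had a median of 16 CpG, and the 21 matched promoters of the primed list a median of 12, against 18 over all 12036. As examples 3 windows are printed. SOX2 was on, ZFP42 had 0 counts for a reason that was not tested, and GCM1, a trophoblast factor, was off. The SOX2, ZFP42 and GCM1 windows hold 20, 23 and 1 CpG, set in capitals, so SOX2 and GCM1 followed the trend. They lie at chr3:181711675-181711924 (plus strand), chr4:187995521-187995770 (plus strand) and chr6:53148842-53149091 (minus strand) and are written 5′ to 3′ in the direction of transcription.
SOX2: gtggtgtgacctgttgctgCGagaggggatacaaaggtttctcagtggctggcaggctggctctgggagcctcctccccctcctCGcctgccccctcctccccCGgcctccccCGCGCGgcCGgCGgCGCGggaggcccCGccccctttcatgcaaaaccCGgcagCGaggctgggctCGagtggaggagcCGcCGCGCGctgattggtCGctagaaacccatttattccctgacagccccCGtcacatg
ZFP42: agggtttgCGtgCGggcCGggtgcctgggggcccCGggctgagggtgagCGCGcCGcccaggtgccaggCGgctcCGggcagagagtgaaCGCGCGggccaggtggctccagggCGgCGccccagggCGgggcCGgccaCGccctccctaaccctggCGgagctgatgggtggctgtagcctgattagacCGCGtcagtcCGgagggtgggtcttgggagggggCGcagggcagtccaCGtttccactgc
GCM1: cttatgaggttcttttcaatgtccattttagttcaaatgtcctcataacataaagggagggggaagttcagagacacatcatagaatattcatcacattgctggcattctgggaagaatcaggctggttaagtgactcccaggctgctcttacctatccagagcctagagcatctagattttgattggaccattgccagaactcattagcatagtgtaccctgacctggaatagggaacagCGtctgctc

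Among the most abundant transcripts, 13 of the top 25 identifiers by CPM were genes of the mitochondrial genome and 6 were nuclear pseudogenes that resemble them. MT-ND4, a complex I subunit, led with 62494 and 54243 CPM under Control and 44067 and 63637 CPM under Luciferase, followed by MT-CO1 at 41162 ± 4680 and MT-CO3 at 38254 ± 4579 CPM (SD, n = 4). Per kb the order differed, with MT-ATP6, an ATP synthase subunit, at 50570 ± 7578 and MT-CO3 at 48794 ± 5840 CPM per kb, a gap smaller than either SD. The pseudogenes took 6.25 to 7.5% of each library. MTCO3P12 alone averaged 20836 ± 2702 CPM, and because it copies mitochondrial sequence, its counts and those of MT-CO3 are uncertain.

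ACTB, beta actin, read 12584 and 11250 CPM under Control and 11379 and 10976 CPM under Luciferase, and stood first per kb among nuclear genes other than pseudogenes, at 3281 ± 202 CPM per kb. HMGA1, an architectural chromatin protein of embryonic and proliferating cells, came next by both measures, with 6244 and 6878 CPM under Control, 5967 and 6564 CPM under Luciferase and 2756 ± 169 CPM per kb. ACTG1, gamma actin, followed at 1740 ± 64.2 and FTL, the ferritin light chain, at 1635 ± 32.4 CPM per kb. Next by CPM were TUBA1B (4589 ± 205), GAPDH (3406 ± 70.7), PABPC1 (2865 ± 178), TUBA1C (2753 ± 70.2) and ALDOA (2690 ± 140). Fatty acid synthase FASN averaged 2383 ± 175 and the desaturase SCD 2293 ± 419 CPM. SCD read 1968 and 2885 CPM under Control and 2029 and 2291 CPM under Luciferase. For several of these genes exons overlap another gene in part, among them ALDOA (53.5%), FTH1 (62.4%) and TUBA1B (36.6%), and the sources used here do not state how reads in shared exons were counted.

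All 20 cytoskeleton genes listed were on, with a summed level of 34569 to 38382 CPM. Of the glycolysis list 19 of 20 were on, summing to 10668 to 11470 CPM, and the lactate exporter gene SLC16A3 was the exception at 0.435 ± 0.444 CPM. Of the chaperone list 21 of 22 were on, and of the translation factor list 19 of 20. The RNA interference list was on in full, 14 of 14, with DICER1 at 50.9 ± 4.07 and AGO2 at 75.2 ± 7.15 CPM. In the list of double-stranded RNA sensing and interferon response 8 of 23 genes were on. Among them were the adaptor MAVS at 54.7 ± 4.22 CPM, the kinase EIF2AK2 (PKR) at 27 ± 5.82 CPM, RIGI at 1.21 ± 0.105 CPM, and IRF3, IRF7, IRF1 and STAT2. IFNB1, OAS1, OAS2, OAS3 and OASL had 0 counts in all 4 libraries, and ISG15, a gene that interferon raises, read 1.96 and 1.46 CPM under Control and 0.944 and 3.76 CPM under Luciferase. The 4 genes targeted elsewhere in the series were on, SEPHS1 at 410 ± 24.5 CPM, SALL4 at 274 ± 25.2 CPM, VRTN at 143 ± 9.11 CPM and DSCC1 at 3.93 ± 0.853 CPM. DSCC1, a subunit of an alternative clamp loader, thus rested on the fewest counts of the 4.

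For 101 families of paralogues the share of each member in the family's summed CPM per kb was computed in each library. In 90 families the same member was highest in all 4 libraries, in 79 it also held over 50% in all 4, and in 24 it held at least 90% in all 4. Families of chromatin factors (16 of 19), metabolism (15 of 17) and cell cycle and survival (11 of 13) had a member over 50%, as did 10 of 16 families of transcription factors and 7 of 11 of cytoskeleton and adhesion. No test was made between these classes.

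Stem cell regulators showed some of the most lopsided families. DPPA4 held 99 ± 0.74% of its family (SD over 4 libraries), LIN28A 99.2 ± 0.23% against 0.814 ± 0.23% for LIN28B, and OTX2 96.5 ± 1.3%. Among DNA methyltransferases DNMT3B held 91.8 ± 0.78% and the maintenance enzyme DNMT1 7.58 ± 0.72%, while DNMT3L was off. SOX2 held 89.4 ± 2.4% of the SOXB group, and ID3 85.3 ± 2.8% of the ID inhibitors of differentiation. TCF7L1, the repressor arm of Wnt signalling, held 89 ± 0.28% of the TCF and LEF factors. Among the SALL zinc fingers the leader was SALL2, at 65.3 ± 1.1%, and SALL4 held 23.5 ± 2.8%. SALL2 read 657 and 715 CPM under Control and 810 and 670 CPM under Luciferase. SALL4 read 243 and 303 CPM under Control and 267 and 282 CPM under Luciferase. POU5F1 led POU3F1 with 72.5 ± 6.7% against 21.8 ± 7%, and POU3F1, a factor of the late epiblast and neural lineage, read 58.9 and 35.3 CPM under Control and 63.7 and 26.1 CPM under Luciferase. MYCN and MYC were not separable, with 52.3 ± 5.2 and 46 ± 5.3%, MYC was the higher of the pair in Luciferase 2, and it led on average when levels were not divided by length.

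Chromatin remodelling families had fixed leaders. SMARCA4 (BRG1) held 99.5 ± 0.2% against SMARCA2 (BRM), which averaged 1.27 ± 0.471 CPM. SMARCC1 held 80.4 ± 2.5% over SMARCC2, ARID1A 92.2 ± 0.52% over ARID1B and SMARCD1 71.7 ± 0.89% of the BAF60 group. CBX2 held 85.3 ± 2.1% of the Polycomb CBX proteins, CHD4, the NuRD ATPase, 58 ± 2.5% of the CHD remodellers, and TET1 68.7 ± 1.1% of the TET demethylases. TERF1 held 72.6 ± 4.6% and TERF2, the other duplex telomere-binding protein, 27.4 ± 4.6%. HMGA1 held 99.9 ± 0.017% over HMGA2, although HMGA2 itself was on, with 52.6 ± 8.98 CPM. HDAC3 and HDAC1 were close, at 43.7 ± 2.1 and 41.4 ± 1.8%, and HDAC2 led that family when levels were not divided by length.

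In metabolism PKM made up 100% of pyruvate kinase, with the liver and red cell gene PKLR at 0 counts in all 4 libraries. ALDOA held 95.6 ± 0.37% of aldolase and ENO1 95.2 ± 0.8% of enolase. HK1 held 77.2 ± 2.6% and HK2 20.6 ± 3.4% of hexokinase. SEPHS1 held 97.9 ± 0.14% over SEPHS2, and CPT1C 92.5 ± 2.3% of the carnitine palmitoyltransferases CPT1A, CPT1B and CPT1C. Of the glucose transporters SLC2A3 held 60.5 ± 2.8% and SLC2A1 38 ± 2.5%. SLC2A3 read 564 and 385 CPM under Control and 558 and 331 CPM under Luciferase, and its close relative SLC2A14 had 96.2 ± 27.9 CPM, so reads of the pair may have been divided. LDHB held 71.9 ± 8.3% of lactate dehydrogenase, but LDHB and LDHA averaged 23.1 ± 0.502 and 19.6 ± 7.9 CPM, which per kb was 7.75 ± 0.168 and 3.15 ± 1.27 CPM per kb, against 1143 ± 23.7 CPM per kb for GAPDH of the same pathway. Other genes overlap 33.4% of the exon bases of LDHB and 0% of those of LDHA.

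At the cell surface CLDN6 held 91.3 ± 1.9% of the claudins, GJA1 (connexin 43) 85.2 ± 1.8% of the connexins, LAMA5 93.7 ± 1.2% of the laminin alpha chains and GPC4 84.4 ± 3.5% of the glypicans. E-cadherin CDH1 held 55.9 ± 5.2% and P-cadherin CDH3 30.7 ± 2.2% of the classical cadherins. FGFR1 led FGFR4 with 54.7 ± 1.7 against 35.5 ± 3%, ACVR1B led the activin type I receptors with 65.2 ± 1.4%, FZD7 the Frizzled receptors with 66.7 ± 4.7% and NOTCH3 the Notch receptors with 58.6 ± 2.6%. ERBB2 held 91.7 ± 0.8% of the ERBB receptors.

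In the cell cycle CCNA2 held 99.1 ± 0.86%, CCNE1 93.9 ± 2.7% and CDK4 98.8 ± 0.3% of their families, while the D cyclins were mixed, with CCND1 at 68.1 ± 3.8% and CCND3 at 22.7 ± 3.9%. The prosurvival genes BCL2L1 and MCL1 shared their family, at 58.8 ± 6.9 and 38.4 ± 6.7%. HSP90AB1 held 91.7 ± 0.48% of cytosolic HSP90 and HSPA8, the constitutive HSP70, 92.5 ± 1.2%, with the stress-induced HSPA1A and HSPA1B at 28.1 ± 8.33 and 34.9 ± 10 CPM. ACTB held 62.2 ± 0.72% and ACTG1 33 ± 0.58% of actin.

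**Figure D3:**
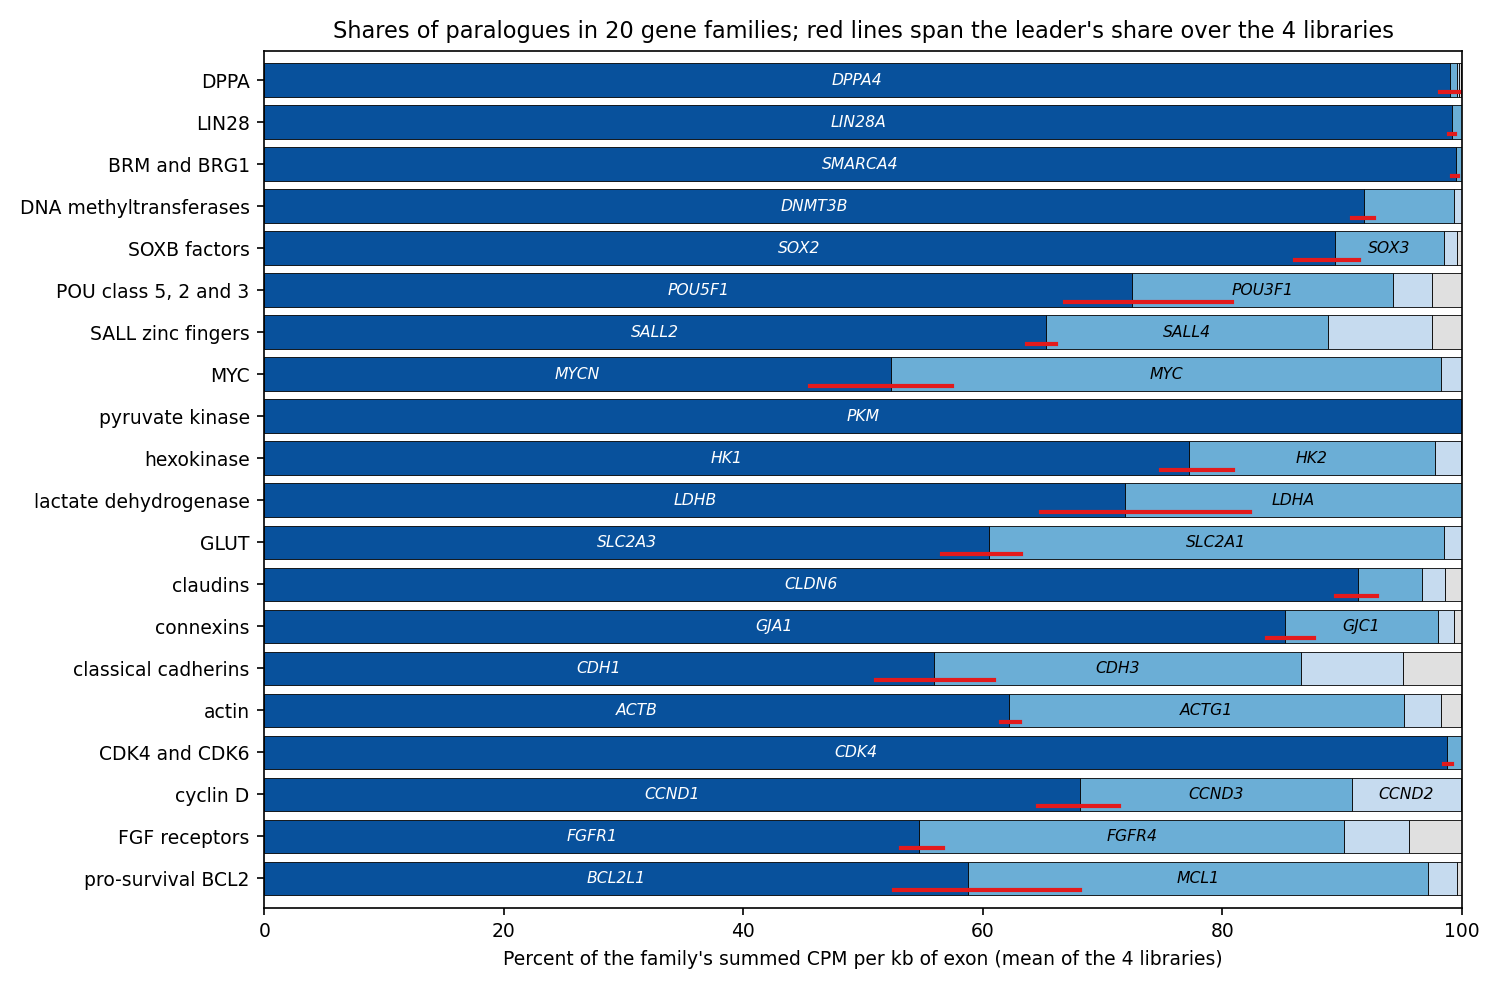
Mean share of each paralogue in the summed CPM per kb of 20 families, members beyond the third pooled as others; red lines span the lowest to highest share of the leading member over the 4 libraries. LIN28A, DPPA4, SMARCA4, PKM and CDK4 each held at least 98% on average, while the leader's range in the MYC family ran from 45.6 to 57.4%.

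The 2 control siRNAs were compared to ask whether the siRNA itself left a mark. In a quasi-likelihood fit with edgeR over all 16 libraries, 0 of 19772 genes (0%) passed an adjusted p of 0.05 (Benjamini-Hochberg). At an unadjusted p under 0.05 there were 212 genes, and DESeq2 also called 0, with 294 at that level. Both counts are under the 0.05 share of genes that this threshold passes where nothing differs. The common dispersion, a measure of spread between replicates, was 0.347 in the edgeR fit. It was 0.143 with the 4 control libraries fitted alone. The Control and Luciferase libraries did not overlap for 28.3% of genes, a separation that 2 against 2 libraries often show without any difference. Without Control 1 or without Control 2 the count was 1. The log2 difference was -0.13 (SE 0.14) for POU5F1, -0.09 (SE 0.14) for SOX2, 0.07 (SE 0.12) for LIN28A and 0.13 (SE 0.16) for DNMT3B. TERF1 differed by 0.30 (SE 0.21). A missed threshold with 2 libraries per siRNA does not show that the siRNAs act alike.

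The number in the library label separated the libraries more than the siRNA did. Over 7157 genes with a mean of at least 10 CPM, libraries with the same number had a Pearson r of 0.9831 and 0.9837 across genes on the log2 scale, and libraries with the same siRNA 0.9758 and 0.974. Genes are not independent replicates, so these are descriptions. Between libraries of the same number 18 and 22 genes differed at least 2-fold, and between libraries of the same siRNA 59 and 92. The difference between numbers 2 and 1 recurred under both siRNAs, which share no library in this comparison. The log2 differences under Control and under Luciferase had r = 0.323 over the same genes, 26 genes differed at least 2-fold in both in the same direction, 4 higher and 22 lower, and 0 in opposite directions. For the difference between siRNAs, taken once among libraries numbered 1 and once among those numbered 2, r was -0.0206.

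When libraries numbered 2 were tested against those numbered 1 in the same way, 8 of 19772 genes passed (0.0405%), 2 higher (0.0101%) and 6 lower (0.0303%). An unadjusted p under 0.05 was found for 609 genes, also under a 0.05 share of those tested. Values did not overlap between the numbers for 36.1% of genes, beside 28.3% between the siRNAs, where 0 genes were called. With 2 against 2 libraries, a share of this size is also expected without any difference. The strongest call was VIM (chr10:17228259-17237593), the intermediate filament of mesenchymal cells and of many cultured cells. It read 316 and 319 CPM in Control 2 and Luciferase 2, against 640 and 757 CPM in Control 1 and Luciferase 1, which edgeR estimated as -1.13 on the log2 scale (SE 0.14) with an adjusted p of 1.5e-05. Other annotated genes overlap 24.4% of its exon bases, and strand use in counting is not stated.

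FST, follistatin, which binds activin, read 4.01 and 2.96 CPM in libraries numbered 2, against 31.5 and 34 CPM in those numbered 1 (log2 fold change -3.24, SE 0.65, edgeR adjusted p = 0.0407). COL7A1, the collagen of anchoring fibrils, read 7.55 and 16.6 CPM in libraries numbered 2, against 35.8 and 47.8 CPM in those numbered 1 (log2 fold change -1.88, edgeR adjusted p = 0.0407). Higher in number 2 were NSG1, a protein of neuronal endosomes, with 66.1 and 61.7 CPM in libraries numbered 2, against 38.1 and 29.1 CPM in those numbered 1, and RASGRF2, a guanine nucleotide exchange factor for Ras, with 39.3 and 38.1 CPM in number 2, against 17.7 and 17.1 CPM in number 1, both at an edgeR adjusted p of 0.0407. MYL4, a myosin light chain, was listed at 0 in both libraries numbered 2, against 6.39 and 9.11 CPM in those numbered 1, and was named after its values were seen, as was a call for an antisense identifier on chromosome X without a symbol. The count depended on the fit: it was 1 (VIM) where every control library had to hold 10 counts, 79 with no filter, and 148 when the 4 control libraries were fitted alone. It was 15 without Control 1 and 13 without Control 2, where the comparison of numbers rests on the Luciferase pair.

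None of the next genes, chosen with their values known, passed the test. CDH1 read 325 and 289 CPM in libraries numbered 2, against 200 and 195 CPM in those numbered 1 (edgeR adjusted p = 0.165). NGFR read 51.3 and 54.3 CPM in number 2, against 128 and 145 CPM in number 1 (edgeR adjusted p = 0.842), SALL1 72.4 and 60.7 CPM in number 2, against 129 and 142 CPM in number 1 (edgeR adjusted p = 0.361), and GBX2 1.5 and 0.48 CPM in number 2, against 15.7 and 16.8 CPM in number 1 (edgeR adjusted p = 0.159). The immediate early gene EGR1 read 398 and 414 CPM in libraries numbered 2, against 173 and 189 CPM in those numbered 1 (edgeR adjusted p = 1). TERF1 was 0.71 higher in number 2 on the log2 scale (SE 0.17, edgeR adjusted p = 0.219). Of the primed list 43 of 44 genes passed the filter on low counts, 0 were called, and the median log2 fold change was 0.11, beside 0 over all genes tested. Of the fibroblast list 9 of 12 passed the filter, 1, VIM, was called, and the median was -1.13. The other lineage lists held 0 calls. Their medians were -1.0 over 16 tested neuroectoderm genes, -0.61 over 12 of the primitive streak, -0.62 over 6 of the neural crest, 2.98 over 11 of endoderm, -2.87 over 7 HOX genes and -3.95 over 3 of paraxial mesoderm, and lay between 0.01 and 0.93 for lateral mesoderm, trophoblast, endothelium and blood. Many of these genes had 3 counts or fewer in some library, where a fitted change is no measure of size. With each library set to no less than 3 counts, and genes under that floor in all 4 left out, the medians were -1.11 for fibroblast, -1.03 for neuroectoderm, -0.77 for primitive streak, -1.23 for neural crest, 1.04 for endoderm, -2.92 for HOX and -0.97 for paraxial mesoderm, beside 0 over all genes. This floor was chosen after seeing the data. Control 1 was the deepest and Luciferase 1 the shallowest library. The mitochondrial shares were 30.6 and 33.1% in number 2, against 33.4 and 27.9% in number 1. The part of depth, mitochondrial share, culture, harvest or preparation in the difference was not tested.

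**Figure D4:**
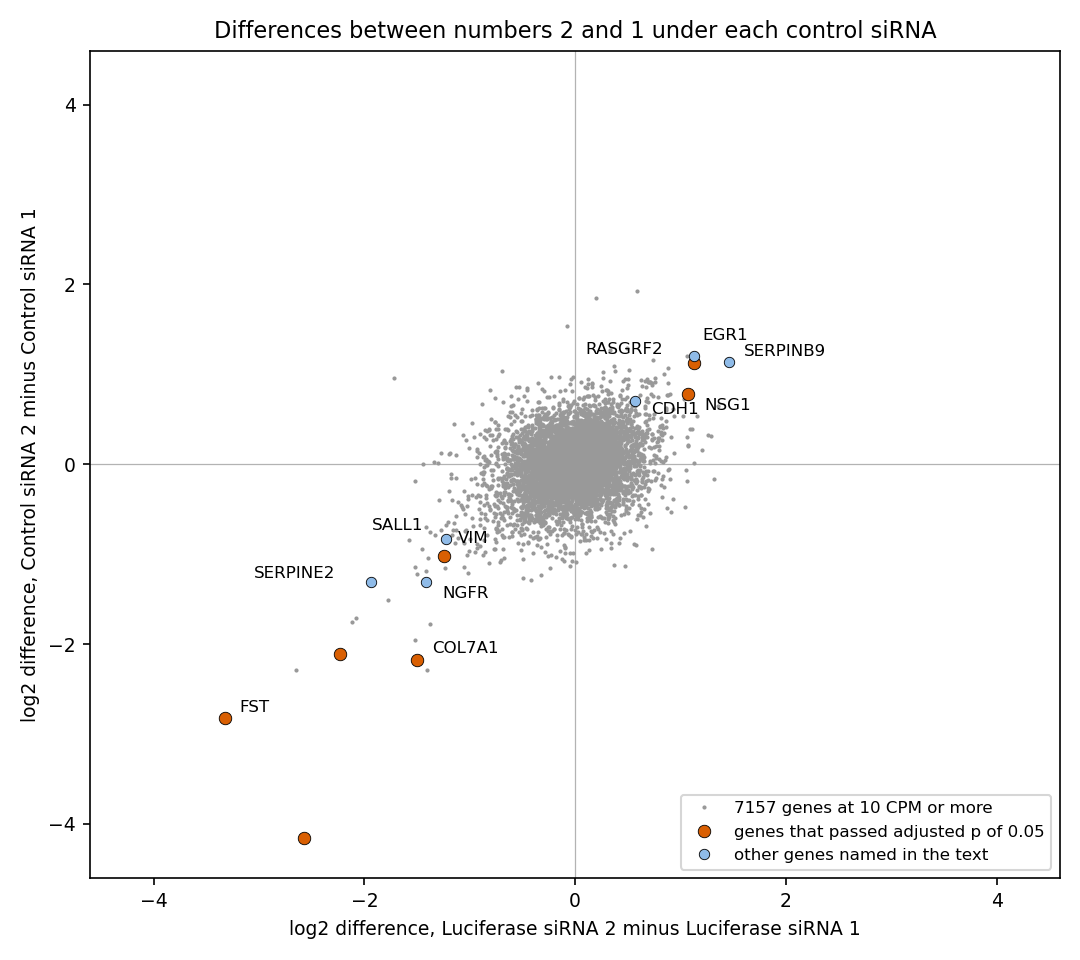
For 7157 genes with a mean of at least 10 CPM, the log2 difference between libraries numbered 2 and 1 under Control siRNA (vertical axis) and under Luciferase siRNA (horizontal axis); orange points passed the test and blue points are other genes named, with symbols for the genes described in the text. FST, COL7A1 and VIM lie at the lower left and RASGRF2 and NSG1 at the upper right. These genes were chosen by the test between the numbers, which uses both pairs, so their shared direction is no separate evidence.

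The coefficient of variation (CV, SD over mean) between the 4 libraries had a median of 11.7% over the 7157 genes of at least 10 CPM, against 3.47% from counting error alone. It fell with the level, with a median of 68.2% between 0.5 and 1 CPM, 14.1% between 10 and 50 CPM and 6.65% between 200 and 1000 CPM, and was 7.86% above 1000 CPM. Among genes of at least 50 CPM the genes with the lowest CVs included the histone methyltransferase SETD2, at 73.1 and 73.4 CPM under Control and 73.7 and 73.6 CPM under Luciferase, and the proliferation factor FOXM1, at 404 and 411 CPM under Control and 408 and 411 CPM under Luciferase. GAPDH, with 3376 and 3494 CPM under Control and 3426 and 3329 CPM under Luciferase, had a CV of 2.08%, against 6.16% for ACTB.

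Among the genes with the highest CVs at that level were SERPINE2 and FOSL1. SERPINE2, protease nexin 1, read 114 and 45.7 CPM under Control and 139 and 35.9 CPM under Luciferase, and FOSL1, an AP-1 subunit, 68 and 29.5 CPM under Control and 97.2 and 36.1 CPM under Luciferase. SERPINB9, an inhibitor of granzyme B, ran the other way, at 35.1 and 77.6 CPM under Control and 32.1 and 89.6 CPM under Luciferase. FOS read 36.8 and 82.8 CPM under Control and 64.6 and 108 CPM under Luciferase. These 4 genes were picked for a high CV. Their values in the libraries numbered 2 and those numbered 1 did not overlap, as held for 36.1% of all genes tested, and none was called between the numbers (edgeR adjusted p = 0.185 for SERPINE2, 0.159 for FOSL1, 0.136 for SERPINB9 and 1 for FOS).

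EGR1 and FOS are targets of serum response factor, whose known binding motif, the CArG box, is CC followed by 6 letters of A or T and then GG. Since the motif is its own reverse complement in form, 1 strand was searched. The EGR1 window (chr5:138465229-138465478, plus strand, 5′ to 3′) holds 2 such boxes, in capitals, starting 105 and 83 bases before the start. At least 1 box was found in 1.16% of the 12036 promoters. For the 637 promoters of on genes averaging 100 to 1000 CPM, the level of EGR1, the share was 2.2%. The window of FOS is not reported here. A match is a description of the letters and not of binding.
EGR1: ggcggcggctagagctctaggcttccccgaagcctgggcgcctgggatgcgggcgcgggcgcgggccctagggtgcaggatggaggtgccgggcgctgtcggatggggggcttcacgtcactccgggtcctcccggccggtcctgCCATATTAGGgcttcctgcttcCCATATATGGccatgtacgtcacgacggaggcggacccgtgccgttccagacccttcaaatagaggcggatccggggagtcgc

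**Figure D5:**
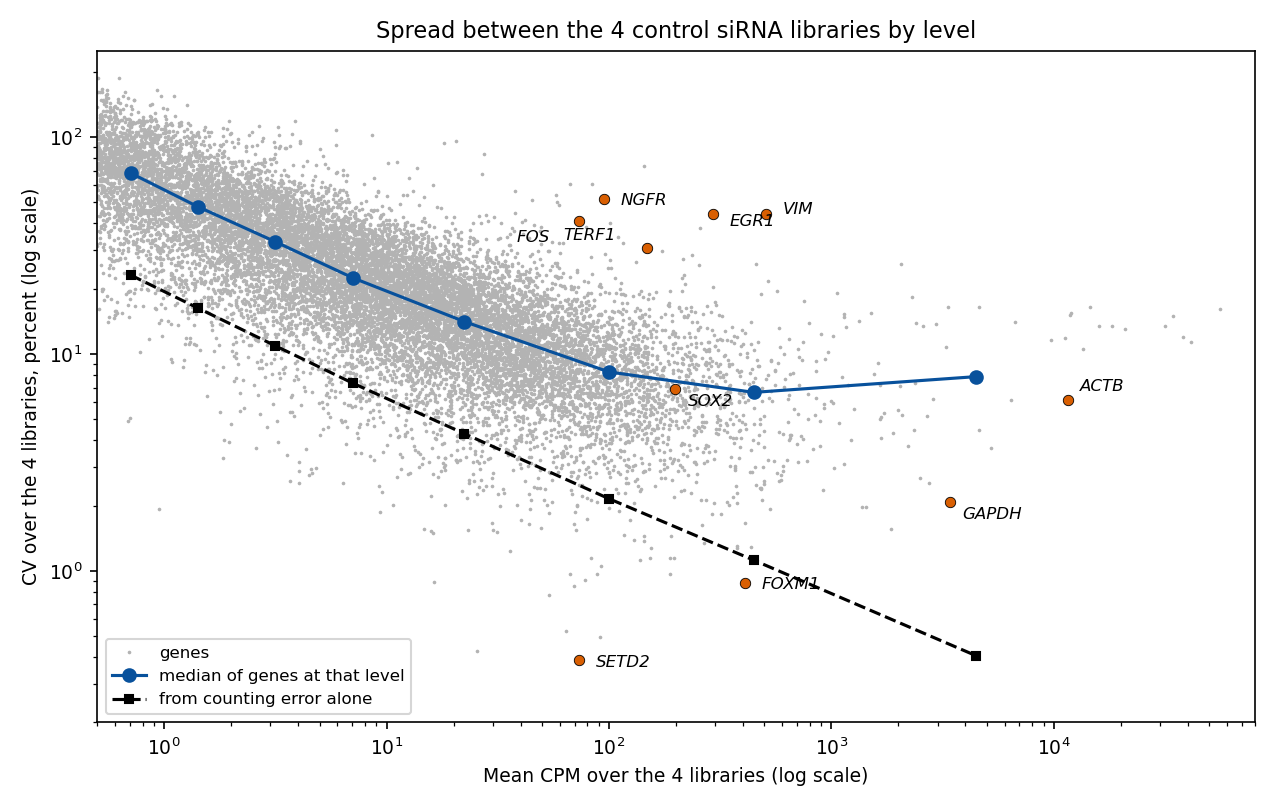
CV over the 4 libraries against mean CPM, both on log axes, for genes of at least 0.5 CPM (grey), with the median by level (blue) and the CV from counting error alone (black). NGFR, FOS, EGR1 and VIM lie above the genes of their level, and SETD2, FOXM1 and GAPDH below.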

How the data were processed

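Poly(A) RNA of H9 REX1-EGFP cells was sequenced, and the authors deposited 1 table of raw read counts per Ensembl identifier for 16 libraries. Reads were aligned to GRCh38 with STAR 2.4.0.1 and counted with HTSeq 0.9.1, per the submitters' processing notes. The annotation release, strand setting and treatment of multi-mapped reads are not given in the sources used here. From the 60675 identifiers, names came from a gene name table (56558) and GENCODE 29 (497). edgeR 4.0.16 (R 4.3.3) gave TMM factors and quasi-likelihood tests over 6 groups, for the 19772 genes that passed its filter on low counts. DESeq2 1.42.0 was an alternative. Levels per kb used merged exons of GENCODE 29. Genes named were the 5 markers, the 4 siRNA targets, the most abundant and most or least variable genes, the leading members of families and lists, and called genes averaging at least 2 log2 CPM. Some genes that this rule names are not reported here. The test scripts were checked on simulated counts. The libraries, the lists and the families were chosen with earlier results of these data known, among them the difference between replicate numbers, so their direction is not independent evidence. Promoter sequences are RefSeq's (GRCh38.p14). Depths and the precision they give are stated with the results.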

Additional observations from a re-analysis of the deposited data

How the results depend on the processing

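There were 2 libraries per siRNA, levels under 0.102 to 0.142 CPM (3 counts) could not be read, and levels of genes with overlapping exons or near-identical copies are uncertain. Leaving out 1 library gave 0 to 1 calls between Control and Luciferase and 8 to 15 between the numbers 2 and 1. A lone library is then assumed to vary like the other groups, and the comparison of numbers rests on 1 pair. Between the numbers there were 79 calls with no filter (21 higher, 58 lower), 1 with 10 counts in every control library and 148 with the 4 control libraries fitted alone (46 higher, 102 lower), against 8. DESeq2 called 11, of which 6 were higher and 5 lower, and FST was not among its calls. NSG1 and RASGRF2 lost their calls without any 1 library, COL7A1 without either Control library. VIM kept its call under every alternative run. An edgeR fit over all 16 libraries with the replicate number as a block called 0 genes between the siRNAs. It gave 208 genes at an unadjusted p under 0.05. Each number has 1 effect shared by all groups in that fit, so it is no pairing of the 4 control libraries alone. The labels do not say what the number stands for, and 2 pairs are too few to decide it here. The share of the 100 most abundant identifiers was 30.4% without the mitochondrial genome, against 51.2%. The median CV was 7.98% from 50 CPM, against 11.7% from 10 CPM. Another member led in 10 families without division by length, in 5 with the longest transcript, and in 1 without Control 2 or without Luciferase 1. The causes were not tested.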

Other observations

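Imprinted genes, expressed from a single parental copy, were mostly on, 12 of 16. PEG10, a gene of retrotransposon origin, averaged 214 ± 19.4 CPM (SD, n = 4), GRB10 76.2 ± 10.3 CPM and MEST 71.8 ± 10.6 CPM. The noncoding MEG3 had 0 and 0.476 CPM under Control and 0 CPM in both Luciferase libraries, and DLK1 of the same imprinted cluster averaged 13.8 ± 1.66 CPM. PEG3 and NNAT had 0 counts in all 4 libraries. H19 read 5.67 and 10.4 CPM under Control and 6.37 and 9.31 CPM under Luciferase.

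Histone genes split by class. All 10 replication-independent genes were on, with H3-3B at 126 ± 5.06 and H2AX at 80.4 ± 7.67 CPM. Of 14 replication-dependent genes, whose mRNAs normally end in a stem-loop without a poly(A) tail, 2 were on, 11 low and 1 off. The libraries were made from poly(A) RNA, and the reason for the low histone levels was not tested. In the list of abundant noncoding RNAs 12 of 14 were on, SNHG14 at 591 ± 15.6 and DANCR at 168 ± 6.04 CPM, whereas the nuclear MALAT1 averaged 3.78 ± 1.4 CPM and NEAT1 3.53 ± 2.36 CPM. Other genes overlap 6.21% of the exon bases of MALAT1, and the reason for its level was not tested. In the germ line list 2 of 10 genes were on, TFAP2C at 14 ± 2.83 and KIT at 5.96 ± 1.99 CPM, and DDX4 and NANOS3 had 0 counts in all 4 libraries.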
